A study of Arabidopsis thaliana with 24 samples.

Results

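The comparison described here is the response to blue light of Arabidopsis thaliana seedlings that carried both the atmyc2 and the cop1-6 mutation, called the double mutant below. Its members were chosen by their labels: 2 arrays of the double mutant grown in blue light and 2 arrays of it grown in constant dark, 4 of the 24 arrays of the series. All seedlings were of the Columbia ecotype, were 10 days old, and had been grown on MS plates at 22 °C after a cold treatment of the seeds. The blue light was given at 35 µmol/s/m2. Each group held 2 samples that the labels call biological replicates; how many seedlings went into each was not stated. The same dark and blue light groups of the wild type (WT), of atmyc2 and of cop1-6, 2 arrays each, served only to show where the double mutant differed. The arrays of seedlings given abscisic acid in blue light entered none of the comparisons. They did enter the estimate of the spread, the level below which signals counted as dim, and the choice of probe sets tested. Neither the alleles beyond these names nor the number of lines behind each genotype was given.

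COP1 is a ubiquitin ligase that, in the dark, marks light-signalling transcription factors for degradation; cop1 mutants take on features of light-grown seedlings in the dark. MYC2 is a DNA-binding regulator of the jasmonate and abscisic acid responses, and it also acts in the growth of seedlings under blue light. When a dark-grown seedling meets blue light, cryptochromes hold COP1 back, chloroplasts are built, photosynthesis starts, and the elongation of the hypocotyl slows.

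RNA was measured on ATH1 GeneChip arrays, on which a probe set reports 1 or a few transcripts as a signal in arbitrary units, scaled on each array by the submitters. Of 22746 probe sets other than controls, 16196 had a mean signal above 19.1 in at least 1 of the 12 groups of the series and were tested; 8821 of these were paired with a single gene in the table of probe sets used here, and 1290 carried a gene symbol or a product name. No probe set was listed for MYC2 or COP1 in that table, so the genotypes could not be checked on the targeted genes. The 2 dark arrays of the double mutant correlated at r = 0.979 over the tested probe sets (log2 signals), and 462 probe sets lay more than 2-fold apart. Its blue light arrays correlated at only 0.937, with 1700 probe sets more than 2-fold apart, and each lay closer to a blue light array of cop1-6 than to the other (r = 0.946 for replicate 1 and 0.967 for replicate 2). Replicate 1 in blue light also had the highest lower quartile of signal, 9.7 against 5.5 to 6.4 on the other 3 arrays. The bacterial spike-in control probe sets averaged 209 and 254 on the dark arrays of the double mutant and 9.9 and 5.2 on its blue light arrays. Dark and blue light arrays thus also differed in a control that does not come from the plants, and its part in the results was not tested.

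Blue light changed 6378 of the 16196 tested probe sets in the double mutant, which is 39.4%. Higher signals were called for 3231 (19.9%) and lower signals for 3147 (19.4%), and the median log2 fold change over all tested probe sets was 0.03. Every count of called members of a gene list below is to be set against these shares. These calls come from limma on log2(signal + 1), with p-values adjusted by the Benjamini-Hochberg method over all tested probe sets and a threshold of 0.05; fold changes are log2 differences of that quantity, blue light minus dark, with standard errors, and they understate changes of dim genes. For dim genes they also depend on the pseudocount. For the double mutant's own response, the value at a pseudocount of 19.1 is therefore given where it is more than 1.5 times smaller. For the other genotypes and for differences of responses it is given only in part, and dim values there can shrink as much. The higher calls were larger in size, with a median log2 fold change of 1.25 against -0.96 for the lower calls. With a pseudocount of 19.1 in place of 1, 241 of the called probe sets rose more than 4-fold and 91 fell more than 4-fold. Without replicate 2 of the dark arrays, 4195 probe sets were called, 2116 higher and 2079 lower. In 70.0% of tested probe sets the 2 blue light arrays did not overlap the 2 dark arrays.

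Among named genes, the highest ranked rises included an amylase, a sucrose phosphate synthase and 2 Calvin cycle enzymes. The 15 genes ranked highest by fold change at the larger pseudocount began with MSRB6, a methionine sulfoxide reductase, whose signals were 28.0 and 30.7 in the dark and 553 and 593 in blue light (log2 fold change 4.24 ± 0.26, adjusted p = 2.28e-09). JRG21, a jasmonate-regulated oxygenase gene, gave 5.7 and 0.8 in the dark and 125 and 361 in blue light (5.94 ± 0.98, adjusted p = 0.000253; 3.40 at the pseudocount of 19.1). In both genes the light arrays lay far above the dark arrays, but the 2 arrays of each JRG21 pair were several-fold apart.

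AMY1, an alpha-amylase, gave 11.7 and 10.2 in the dark and 242 and 297 in blue light, a log2 fold change of 4.50 ± 0.37, adjusted p = 9.09e-08. ATSPS4F, a sucrose phosphate synthase, gave 23.7 and 18.5 in the dark and 357 and 242 in blue light (3.75 ± 0.48, adjusted p = 1.2e-05). Both enzymes went from dim signals in the dark to clear signals on both light arrays. PRK, phosphoribulokinase of the Calvin cycle, was at 290.1 and 270.3 in the dark and 1989 and 2291 in blue light (2.93 ± 0.22, adjusted p = 3.11e-08). SBPASE, sedoheptulose bisphosphatase of the same cycle, gave 229.6 and 228 in the dark and 1519.5 and 1856 in blue light (2.87 ± 0.20, adjusted p = 8.52e-09). These 2 Calvin cycle genes had clear signals in the dark already and still rose on both light arrays.

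Subunits of the chloroplast NADH dehydrogenase-like complex were also among the highest. NdhL gave 22.5 and 30.3 in the dark and 376 and 338 in blue light (3.72 ± 0.32, adjusted p = 1.4e-07), and NdhN gave 37.2 and 39.9 in the dark and 299 and 332 in blue light (3.00 ± 0.24, adjusted p = 4.75e-08). LrgB, a plastid transporter of glycolate and glycerate, gave 55.0 and 66.8 in the dark and 499.7 and 536 in blue light (3.07 ± 0.21, adjusted p = 8.52e-09). The pairs of arrays agreed closely for all 3 genes. CaS, a calcium-sensing protein of the thylakoid, was at 197 and 256 in the dark and 1487 and 1266 in blue light (2.60 ± 0.27, adjusted p = 1.06e-06). LHCB4.3, a minor antenna protein of photosystem II, gave 40.8 and 37.2 in the dark and 455 and 337 in blue light (3.30 ± 0.19, adjusted p = 1.33e-09).

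The remaining ranked risers were 3 plastid genes and a defensin. The photosystem II gene psbB gave 32.0 and 32.1 in the dark and 289 and 617 in blue light (3.68 ± 0.84, adjusted p = 0.00308), the photosystem I gene psaA gave 222 and 127 in the dark and 1109.5 and 1476 in blue light (2.92 ± 0.50, adjusted p = 0.000249), and the ribosomal protein gene rpl22 gave 134 and 183 in the dark and 941 and 1445 in blue light (2.89 ± 0.75, adjusted p = 0.00676). PDF1.2b, a plant defensin of the ethylene and jasmonate response, gave 0.8 and 5.3 in the dark and 268 and 71.4 in blue light (5.37 ± 0.85, adjusted p = 8.48e-05; 2.87 at the pseudocount of 19.1). Its blue light arrays were several-fold apart, with replicate 1 the higher, and both lay above the dark arrays.

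**Figure D1:**
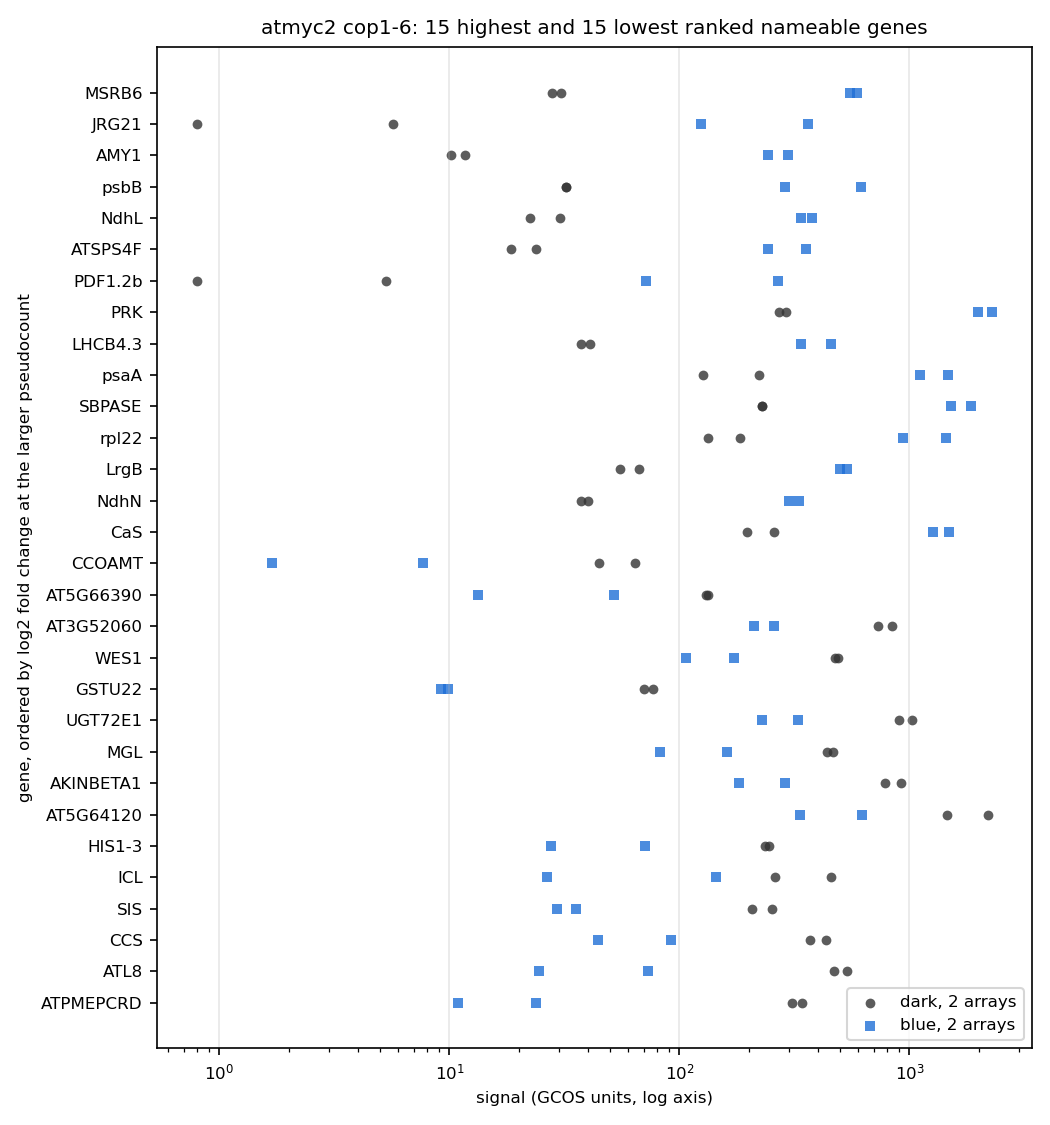
Signal of the 15 highest and 15 lowest ranked named genes on each of the 4 arrays of the double mutant, on a log axis (dark, circles; blue light, squares; 2 arrays each), ordered by log2 fold change at the pseudocount of 19.1. The 2 conditions do not overlap for any of the 30 genes, which the ranking rule required, and the spread within the blue light pair is wide for PDF1.2b, CCOAMT and ICL.

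The named genes that fell furthest included a pectin methylesterase, a ubiquitin ligase and 2 peroxidases. ATPMEPCRD, a pectin methylesterase, fell from 309.7 and 343 in the dark to 23.8 and 10.9 in blue light (-4.25 ± 0.45, adjusted p = 1.69e-06). ATL8, a RING-type ubiquitin ligase, fell from 468 and 537 to 24.4 and 72.9 (-3.54 ± 0.69, adjusted p = 0.000895). The dark pairs of both genes were tight, and the light pairs were wider on the log scale. CCS, the copper chaperone of superoxide dismutase, gave 433 and 369.9 in the dark and 44.1 and 91.5 in blue light (-2.63 ± 0.41, adjusted p = 8.63e-05). SIS, named for salt induction and its serine-rich protein, gave 206 and 253 in the dark and 29.3 and 35.6 in blue light (-2.78 ± 0.31, adjusted p = 2.31e-06).

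AKINBETA1, a regulatory subunit of the energy-sensing SnRK1 kinase, gave 784 and 923 in the dark and 181 and 289 in blue light (-1.89 ± 0.30, adjusted p = 9.73e-05). MGL, methionine gamma-lyase, gave 439 and 467 in the dark and 82.7 and 161 in blue light (-1.96 ± 0.38, adjusted p = 0.000754). Both fell several-fold yet kept signals well above the dim level in light. ICL, isocitrate lyase of the glyoxylate cycle that turns seed oil into sugar, gave 457 and 260.0 in the dark and 144 and 26.5 in blue light (-2.45 ± 0.62, adjusted p = 0.00529). Its call was lost without blue light replicate 2 (adjusted p = 0.0869) and without dark replicate 1 (0.0544), and with only the 4 arrays in the fit (0.094). HIS1-3, a drought-inducible linker histone, fell from 235 and 245 to 27.7 and 70.6 (-2.41 ± 0.44, adjusted p = 0.000434).

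Of the class III peroxidases, AT5G64120 (peroxidase 71) gave 2200.2 and 1461 in the dark and 336 and 623 in blue light (-1.97 ± 0.54, adjusted p = 0.00956). AT5G66390 (peroxidase 72) gave 133 and 130.2 in the dark and 51.8 and 13.3 in blue light (-2.27 ± 0.55, adjusted p = 0.00345). The first call was lost without blue light replicate 1 (adjusted p = 0.0838) or dark replicate 1 (0.0757), and the second without blue light replicate 2 (0.0692). WES1, an enzyme that conjugates auxin to amino acids, gave 473 and 488 in the dark and 107 and 173 in blue light (-1.81 ± 0.36, adjusted p = 0.000702). GSTU22, a glutathione transferase, gave 77.0 and 70.1 in the dark and 9.2 and 9.9 in blue light (-2.82 ± 0.40, adjusted p = 2.71e-05; -1.69 at the pseudocount of 19.1). UGT72E1, a glucosyltransferase of lignin precursors, gave 1024 and 904 in the dark and 327 and 228 in blue light (-1.81 ± 0.25, adjusted p = 2.07e-05). In these 3 genes the light arrays lay far below the dark arrays. AT3G52060, annotated as an N-acetylglucosaminyl transferase-like protein, gave 733 and 842 in the dark and 211 and 258 in blue light (-1.75 ± 0.26, adjusted p = 4.71e-05). CCOAMT, annotated as a caffeoyl-CoA methyltransferase, gave 64.0 and 44.9 in the dark and 1.7 and 7.7 in blue light (-3.49 ± 0.68, adjusted p = 0.000539; -1.63 at the pseudocount of 19.1).

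Nuclear genes of the light reactions and of carbon fixation rose together. All 6 tested subunits of the photosystems and electron transport were called higher, with a median log2 fold change of 1.27, and so were all 3 tested antenna proteins (median 0.93) and all 3 tested Calvin cycle enzymes (median 2.87), against 19.9% higher over all probe sets. Only 6 of 37, 3 of 21 and 3 of 23 genes on these lists were measured under a single gene. PSAE-1, a photosystem I subunit, gave 786 and 861 in the dark and 3423 and 2838 in blue light (1.92 ± 0.17, adjusted p = 1.3e-07). PSAN, another subunit of photosystem I, gave 716 and 725 in the dark and 2319 and 2159.9 in blue light (1.63 ± 0.15, adjusted p = 3.36e-07). These subunits were already bright in darkness, and both light arrays lay far above both dark arrays. ATPC1, the gamma subunit of chloroplast ATP synthase, was at 779 and 815 in the dark and 2070.2 and 2247 in blue light (1.44 ± 0.15, adjusted p = 8.23e-07). PSBY of photosystem II gave 1108 and 1155 in the dark and 2318 and 2523 in blue light (1.10 ± 0.17, adjusted p = 5.93e-05). The smallest change among the 6 was in PSB27, a photosystem II assembly factor (0.60 ± 0.17, adjusted p = 0.00769).

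The antenna genes moved unequally. LHCB4.3, described above, rose by 3.30, but LHCB4.2 gave 896 and 869 in the dark and 2128 and 1331 in blue light (0.93 ± 0.21, adjusted p = 0.00156) and LHCB4.1 gave 1658 and 1926 in the dark and 2571 and 2659 in blue light (0.55 ± 0.17, adjusted p = 0.0166). The LHCB4.1 call was lost without blue light replicate 1 (adjusted p = 0.0509), blue light replicate 2 (0.0727) or dark replicate 1 (0.128). RCA, Rubisco activase, rose from 1265 and 1268 to 3377 and 4028 (1.54 ± 0.18, adjusted p = 3.61e-06).

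Genes of pigment synthesis and photorespiration followed with smaller changes. In chlorophyll and haem synthesis 5 of 9 tested genes were called higher and none lower, with a median of 0.66; without blue light replicate 2, 3 were called. CHLI2, a subunit of magnesium chelatase, gave 41.2 and 46.5 in the dark and 156 and 139 in blue light (1.73 ± 0.45, adjusted p = 0.00582). AT1G74470, geranylgeranyl reductase, gave 1067 and 992 in the dark and 1622 and 1769 in blue light (0.72 ± 0.16, adjusted p = 0.00164), and CHLM, the methyltransferase of magnesium protoporphyrin, gave 595 and 580.0 in the dark and 951 and 904 in blue light (0.66 ± 0.17, adjusted p = 0.00421). Both of these genes were already bright in the dark. HEME2, a uroporphyrinogen decarboxylase, had a log2 fold change of 0.81 ± 0.20, adjusted p = 0.00309, lost without blue light replicate 2 (adjusted p = 0.0576). PORB, the protochlorophyllide reductase that greens seedlings, gave 326 and 264 in the dark and 293 and 412 in blue light and was not called (0.24 ± 0.19, adjusted p = 0.326).

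Of 5 tested photorespiration genes 3 were called higher and 1 lower (median 1.45), against 19.9% and 19.4% over all probe sets. HPR, peroxisomal hydroxypyruvate reductase, gave 883 and 859.9 in the dark and 2083 and 2735 in blue light (1.45 ± 0.20, adjusted p = 2.47e-05), and AT1G11860 and AT1G32470 rose by 1.56 and 1.80 (adjusted p = 1.93e-06 and adjusted p = 2.71e-05). AT2G35120 went the other way, at 258 and 290.2 in the dark and 210.4 and 104 in blue light (-0.88 ± 0.29, adjusted p = 0.023), a call lost without blue light replicate 2 (adjusted p = 0.357), dark replicate 1 (0.0577) or dark replicate 2 (0.125), and with only the 4 arrays in the fit (0.0673). Of 3 tested genes of carotenoids and photoprotection, TAPX, the thylakoid ascorbate peroxidase, gave 95.1 and 101 in the dark and 200.2 and 243 in blue light (1.16 ± 0.26, adjusted p = 0.00176), and LYC, lycopene cyclase, gave 166 and 167 in the dark and 272 and 283 in blue light (0.73 ± 0.21, adjusted p = 0.0084). Among the chaperones listed by name, 3 of 4 were called higher. Cpn60beta4, a subunit of the chloroplast chaperonin, rose from 19.4 and 16.4 to 122 and 122 (2.71 ± 0.27, adjusted p = 6.26e-07), and Cpn60beta2 rose by 1.42 (adjusted p = 5.55e-05); the last of the 3, CPNIFS, is a chloroplast cysteine desulfurase and no chaperone, and its call was lost without blue light replicate 2 (adjusted p = 0.172) or dark replicate 2 (0.223).

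Most tested genes of the plastid genome rose. Of 67 tested plastid-encoded genes 40 were called higher in blue light and none lower, with a median log2 fold change of 1.01. The count depended on single arrays: 19 were called without blue light replicate 2 and 22 without dark replicate 1. On 55 of the 67 the light signal of replicate 2 was above that of replicate 1. The dark pair leaned the same way, with replicate 1 above replicate 2 on only 18 of the 67. Over all tested probe sets replicate 1 was the higher for 51.0% in blue light and for 8779 of 16196 in the dark. Plastid transcripts carry few stable poly(A) tails, and the labels state only the manufacturer's standard labelling from total RNA; how evenly these transcripts were labelled was not tested.

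By function, 5 of 6 genes of the ATP synthase were called higher (median 1.19), 10 of 14 of the ribosomal proteins (1.38), 3 of 4 of the plastid RNA polymerase (1.51), 3 of 5 of photosystem I (0.91), 7 of 15 of photosystem II (0.73), 4 of 9 of the NADH dehydrogenase-like complex (0.88) and 2 of 6 of the cytochrome b6f complex (0.44). The counts for the RNA polymerase, for the ribosomal proteins, for the ATP synthase, for the NADH dehydrogenase-like complex and for cytochrome b6f fell to 0, 5, 3, 1 and 1 without blue light replicate 2, and those of the last 4 groups to 5, 3, 2 and 1 without dark replicate 1; without dark replicate 2, 5 ribosomal protein genes and 2 of the NADH dehydrogenase-like complex were called. The ATP synthase gene atpF gave 475 and 414 in the dark and 1399.6 and 1713 in blue light (1.80 ± 0.29, adjusted p = 8.59e-05), and psaB of photosystem I gave 1258 and 972 in the dark and 2928 and 2973 in blue light (1.41 ± 0.16, adjusted p = 2.42e-06). For both, the pairs of arrays were tight and far apart. The reaction centre gene psbA gave 494 and 363 in the dark and 1476 and 1172 in blue light (1.63 ± 0.34, adjusted p = 0.000988), and psbD gave 41.2 and 34.0 in the dark and 181 and 258 in blue light (2.50 ± 0.45, adjusted p = 0.000341). At the other end, matK gave 2281 and 2440.5 in the dark and 2331 and 2471 in blue light and rpl33 gave 1918 and 2582 in the dark and 2567 and 2755 in blue light, and neither was called (adjusted p = 0.948 and adjusted p = 0.395). Such genes had signals in the dark about as high as in light.

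Genes of the mitochondrial genome, which were taken by their symbols, were mostly not called. Of 19 tested probe sets 2 were called higher and none lower (median 0.23), against 19.9% and 19.4% over all probe sets. The maturase gene matR gave 43.0 and 44.8 in the dark and 135 and 177 in blue light (1.79 ± 0.33, adjusted p = 0.000304). The call of ccb382 (0.74 ± 0.27, adjusted p = 0.0356) was lost without blue light replicate 1 (adjusted p = 0.221) or dark replicate 2 (0.348), which left 1 call, and also without trend and robust moderation (0.0527) or with only the 4 arrays in the fit (0.0577). With only the 4 arrays in the fit, 2 mitochondrial probe sets were called higher and 3 lower.

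Most tested genes of the anthocyanin list and of the jasmonate list were called higher in blue light. On both lists all tested genes were higher on blue light replicate 1 than on replicate 2. This did not hold for all jasmonate-linked genes, since JRG21, described above, was higher on replicate 2. Of 6 tested flavonoid and anthocyanin genes 5 were called higher and none lower (median 2.50). UGT78D2, a flavonoid glucosyltransferase, gave 49.4 and 57.2 in the dark and 240.3 and 170.1 in blue light (1.91 ± 0.29, adjusted p = 4.61e-05). DFR, dihydroflavonol reductase of anthocyanin synthesis, gave 5.3 and 6.3 in the dark and 83.8 and 23.6 in blue light (2.75 ± 0.65, adjusted p = 0.00292; 1.41 at the pseudocount of 19.1). UF3GT, an anthocyanin glycosyltransferase, gave 1.5 and 5.1 in the dark and 88.0 and 12.3 in blue light (3.14 ± 0.72, adjusted p = 0.00214; 1.38 at the pseudocount of 19.1). On all 6 genes blue light replicate 1 was above replicate 2, by several-fold for the last 2, whereas over all tested probe sets replicate 1 was the higher for 51.0%. CHIL, related to chalcone isomerase, gave 9.2 and 12.4 in the dark and 84.9 and 39.4 in blue light (2.33 ± 0.57, adjusted p = 0.00351; 1.39 at the pseudocount of 19.1). Without blue light replicate 1 only 1 of the 6 genes was called; the adjusted p-values were then 0.0599 for DFR, 0.0665 for UF3GT and 0.0552 for CHIL.

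All 3 tested genes of jasmonate synthesis and response were called higher (median 2.36), and all 3 were again higher on blue light replicate 1. OPCL1, a ligase of jasmonate synthesis in the peroxisome, gave 30.3 and 28.6 in the dark and 121 and 79.8 in blue light (1.70 ± 0.27, adjusted p = 8.34e-05). JAL23, a jacalin-related lectin, gave 6.2 and 8.5 in the dark and 66.0 and 26.0 in blue light (2.36 ± 0.72, adjusted p = 0.0161; 1.23 at the pseudocount of 19.1), and THI2.1, a thionin, gave 1.1 and 3.8 in the dark and 36.0 and 9.9 in blue light (2.66 ± 0.99, adjusted p = 0.0438; 0.89 at the pseudocount of 19.1). Only OPCL1 kept its call when any single array was left out. JAL23 had an adjusted p of 0.143 without blue light replicate 1, 0.0877 without dark replicate 1 and 0.0505 without dark replicate 2. THI2.1 had 0.269, 0.227 and 0.0652 without the same 3 arrays and 0.0544 to 0.299 under 4 other settings, and 1 of the 3 genes was called without each of these arrays. At the pseudocount of 19.1 as well, 1 was called.

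Of 5 tested defence genes that respond to ethylene and jasmonate 2 were called higher. PDF1.2, a defensin close in sequence to PDF1.2b so that the 2 probe sets may share transcripts, gave 19.3 and 16.4 in the dark and 224 and 35.6 in blue light (2.27 ± 0.68, adjusted p = 0.0131); without blue light replicate 1 its adjusted p was 0.264, without dark replicate 2 it was 0.0753, and with only the 4 arrays in the fit it was 0.118. PDF1.4, another defensin, gave 444 and 534 in the dark and 124 and 559.5 in blue light and was not called (adjusted p = 0.292). Without blue light replicate 2, 3 of the 5 genes were called higher and 1 lower; without blue light replicate 1 or dark replicate 2, 1 was called higher. The 2 light arrays stood apart on these defensins, replicate 1 being the higher for PDF1.2 and the lower for PDF1.4. 

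Among 4 tested genes of aliphatic glucosinolate synthesis, AT2G31790 rose by 0.90 (adjusted p = 0.000945) and BCAT4, which starts the chain elongation of methionine, by 0.83 (adjusted p = 0.0109); the BCAT4 call was lost without blue light replicate 1 (adjusted p = 0.174) or dark replicate 1 (0.0641), and 1 of the 4 genes was then called.

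Few genes of light signalling, abscisic acid or cold could be tested. HYH, a bZIP factor that promotes light-grown development and is a target of COP1, gave 18.2 and 17.7 in the dark and 112 and 138 in blue light (2.72 ± 0.39, adjusted p = 2.92e-05). It was the only one of 3 tested light signalling factors called. MYC3, a relative of MYC2, gave 160.5 and 174 in the dark and 107 and 112 in blue light (-0.61 ± 0.24, adjusted p = 0.0509). MYC4, another relative, gave 56.7 and 69.3 in the dark and 127 and 57.7 in blue light (0.44 ± 0.34, adjusted p = 0.32). Leaving out blue light replicate 2 called a second of the 3 higher, and 4 of the other settings, among them the filter at 56.5 and quantile normalization, called a second one lower. Of 6 tested abscisic acid and cold responsive genes, 1 was called higher and none lower (median 0.62), against 19.9% and 19.4% over all probe sets. COR15A, a chloroplast cold-protective protein, gave 0.5 and 3.1 in the dark and 52.6 and 19.3 in blue light (3.73 ± 0.66, adjusted p = 0.00031; 1.33 at the pseudocount of 19.1), and COR47, a dehydrin, gave 500.3 and 470.1 in the dark and 596 and 901 in blue light (adjusted p = 0.0712). Without blue light replicate 1, 2 of these 6 genes were called higher.

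Most tested genes of starch and sugar metabolism rose. Of 7 tested genes 5 were called higher and none lower, with a median of 1.93. Beside ATSPS4F, SBE2.2, a starch branching enzyme, gave 73.3 and 48.9 in the dark and 189 and 282 in blue light (1.93 ± 0.32, adjusted p = 0.000136). The sugar transporter SWEET1 gave 45.9 and 51.5 in the dark and 252 and 139.7 in blue light (1.93 ± 0.43, adjusted p = 0.00195), and SAG29, the transporter also called SWEET15, gave 6.6 and 2.3 in the dark and 72.2 and 46.9 in blue light (3.56 ± 0.84, adjusted p = 0.00246; 1.73 at the pseudocount of 19.1). Light signals of these genes lay above the dark signals on each array, whereas SWEET11, bright in both conditions, gave 1606 and 1988 in the dark and 2529 and 1726 in blue light (adjusted p = 0.518). Of 4 tested genes of seed reserves and their use, AMY1 and AIM1, a protein of fatty acid beta-oxidation (334 and 292 in the dark and 479 and 554 in blue light; 0.72 ± 0.15, adjusted p = 0.00103), were called higher and ICL lower.

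Among 8 tested genes known to rise in darkness or starvation, 1 was called higher and 2 lower (median -0.48), near the 19.9% and 19.4% over all probe sets. ATG8H, an autophagy protein, rose from 35.8 and 30.6 to 93.8 and 82.8 (1.39 ± 0.31, adjusted p = 0.00176). MGL fell, as described, and MCCA, a subunit of the leucine-degrading methylcrotonyl-CoA carboxylase, gave 427 and 359 in the dark and 89.7 and 329 in blue light (-1.18 ± 0.40, adjusted p = 0.0282). The MCCA light arrays were far apart, and the call was lost without blue light replicate 1 (adjusted p = 0.564), dark replicate 1 (0.131) or dark replicate 2 (0.071), and with only the 4 arrays in the fit (0.218).

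Genes of auxin and of the cytoskeleton had more lower than higher calls, and those of the cell wall were mixed. Tested were 17 expansins and xyloglucan endotransglucosylases (XTHs), proteins that loosen or remodel the wall. Of these, 3 were called higher and 6 lower (median -0.06), against 19.9% and 19.4% over all probe sets. The excess of lower calls was not kept without blue light replicate 2 or without dark replicate 2. The expansin EXPA15 gave 106 and 129 in the dark and 42.6 and 26.1 in blue light (-1.78 ± 0.24, adjusted p = 1.65e-05). EXPA4 gave 338 and 403 in the dark and 202 and 111 in blue light (-1.29 ± 0.30, adjusted p = 0.00267), a call lost without blue light replicate 2 (adjusted p = 0.0596). Others of the same families went up: XTH19 gave 28.8 and 32.7 in the dark and 143 and 129 in blue light (2.11 ± 0.26, adjusted p = 6.46e-06), and the expansin-like gene EXLA1 gave 239.5 and 220.1 in the dark and 525 and 974 in blue light (1.63 ± 0.26, adjusted p = 8.25e-05).

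Of 3 tested auxin genes 2 were called lower. IAA29, an auxin response repressor induced in shade, fell from 21.3 and 22.9 to 2.4 and 0.4 (-3.40 ± 0.60, adjusted p = 0.000211; -1.01 at the pseudocount of 19.1), and was dim on both light arrays. WES1 fell as given above, and GH3.3, of the same enzyme family, gave 102 and 52.8 in the dark and 155 and 102 in blue light and was not called (adjusted p = 0.0642). Of 8 tested tubulins and actins 5 were called lower and none higher (median -0.64), against 19.4% lower over all probe sets. The beta-tubulin TUB6 gave 881 and 975 in the dark and 361 and 365 in blue light (-1.35 ± 0.14, adjusted p = 7.88e-07), and TUB1, another beta-tubulin, gave 104 and 124 in the dark and 36.9 and 25.3 in blue light (-1.86 ± 0.39, adjusted p = 0.00117). TUB7 and TUA1 fell by less (-0.76 and -0.78; adjusted p = 0.000534 and adjusted p = 0.00325), and the TUA1 call was lost without blue light replicate 1 (adjusted p = 0.0532). Tubulin sequences are alike, so probe sets of this family may share transcripts. None of 6 tested cellulose synthase genes was called in either direction (median 0.00).

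Large enzyme families were mixed. Of 36 tested UDP-glycosyltransferases 11 were called higher and 6 lower (median 0.30), against 19.9% and 19.4% over all probe sets. UGT73C1 rose from 0.8 and 1.1 to 50.3 and 31.2 (4.39 ± 0.65, adjusted p = 4.05e-05; 1.56 at the pseudocount of 19.1), and UGT71C2 fell from 92.8 and 77.5 to 17.7 and 18.0 (-2.19 ± 0.26, adjusted p = 5e-06). Of 15 genes listed as cytochrome P450s by their CYP symbols, of which 2 are cyclophilins, 6 were called higher and none lower (median 0.47). CYP71B26 gave 79.9 and 71.0 in the dark and 439 and 462 in blue light (2.56 ± 0.31, adjusted p = 5.86e-06), and the 3 others named by the rule, CYP71B28, CYP71B24 and CYP71B35, belong to the same subfamily and rose by 1.79, 1.99 and 3.12 (for CYP71B35 1.23 at the pseudocount of 19.1; adjusted p = 1.39e-06, adjusted p = 0.000924 and adjusted p = 0.00096). Genes of a subfamily can share transcripts on an array, which was not tested. Of 10 glutathione transferases 4 were called higher and 2 lower, the latter near the 19.4% over all probe sets. GSTL3 gave 190.2 and 177 in the dark and 806 and 645 in blue light (1.97 ± 0.27, adjusted p = 1.65e-05). GSTU18 and GSTU16 rose by 1.56 and 1.79 (adjusted p = 3.26e-05 and adjusted p = 0.000284).

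Of the transcription factors, 3 of 6 tested bZIP genes were called lower and none higher (median -0.45), against 19.4% and 19.9% over all probe sets. BZIP60 and BZIP28, which act in the stress response of the endoplasmic reticulum, both fell. BZIP60 gave 370.2 and 398 in the dark and 135 and 184 in blue light (-1.28 ± 0.26, adjusted p = 0.000794), and BZIP28 gave 230.5 and 211 in the dark and 138 and 142 in blue light (-0.65 ± 0.16, adjusted p = 0.00317). BZIP61 gave 69.3 and 75.1 in the dark and 14.9 and 33.6 in blue light (-1.64 ± 0.34, adjusted p = 0.000931). Dark and light arrays did not overlap for any of these 3 genes, which was also so for 70.0% of all tested probe sets. WRKY22, a factor of immune signalling, fell from 93.2 and 109 to 50.6 and 45.7 (-1.05 ± 0.23, adjusted p = 0.00134). The call of WRKY20 (0.44 ± 0.17, adjusted p = 0.0454) was lost without either blue light array or without dark replicate 1, with adjusted p-values of 0.076 to 0.284, which left 1 of the 5 tested WRKY genes called, and under 3 other settings (0.076 to 0.136). Of 5 tested histones 2 were called lower, HIS1-3 and HTB1, the latter at 185 and 189.8 in the dark and 134 and 96.0 in blue light (-0.72 ± 0.17, adjusted p = 0.0027); without blue light replicate 2, HTB1 had an adjusted p of 0.0592 and 1 histone was called.

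**Figure D2:**
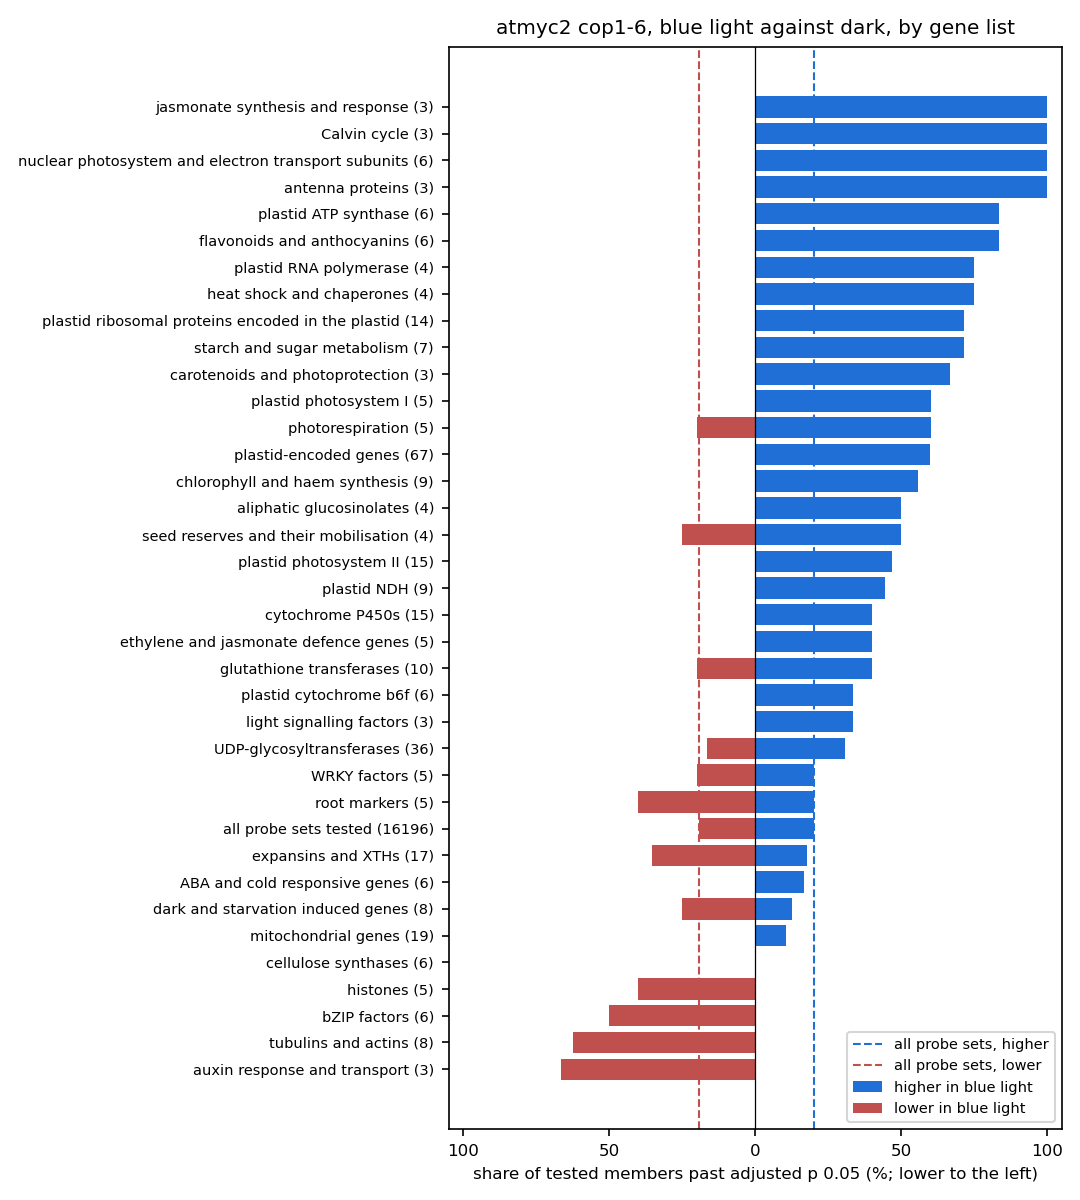
Share of the tested members of each gene list that was called higher (right) or lower (left) in blue light than in the dark in the double mutant, at an adjusted p under 0.05, with the number of tested members in brackets. Dashed lines mark the 19.9% and 19.4% of all tested probe sets; chloroplast lists lie to the right of them, and tubulins, bZIP factors and auxin genes reach further left, on small numbers of genes.

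Of the organ markers, 1 of 2 leaf markers was called higher, and of 5 root markers 2 were called lower and 1 higher. Over all probe sets the shares were 19.4% lower and 19.9% higher. The 2 measured of 14 leaf and stomatal markers summed to 40.7 and 48.0 in the dark and 81.7 and 79.3 in blue light; SPCH, a factor that starts the stomatal lineage, gave 22.9 and 28.9 in the dark and 22.0 and 19.9 in blue light (adjusted p = 0.641), and FMA (FAMA), which ends it, gave 17.8 and 19.1 in the dark and 59.7 and 59.4 in blue light (1.64 ± 0.36, adjusted p = 0.00133; 1.07 at the pseudocount of 19.1). The 5 measured of 19 root markers summed to 5554 and 5055 in the dark and 3185 and 3459.9 in blue light. PYK10, a root beta-glucosidase of endoplasmic reticulum bodies and the brightest of them, gave 3244 and 3489 in the dark and 2704 and 2794 in blue light (adjusted p = 0.0993). The root peroxidases AT5G64120 and AT4G11290 were called lower (-1.97 and -1.36; adjusted p = 0.00956 and adjusted p = 0.0376), and the root-hair expansin EXPA7 higher (2.54 ± 0.98, adjusted p = 0.0498; 0.82 at the pseudocount of 19.1). The AT4G11290 call was lost without blue light replicate 2 (adjusted p = 0.45) or either dark array (0.145 and 0.0989) and under 3 other settings (0.0501 to 0.111), that of EXPA7 without blue light replicate 1 (0.351) or dark replicate 1 (0.396) and under 5 other settings (0.0572 to 0.199). Without blue light replicate 1, 1 of the 5 was called, and without dark replicate 1 none of the 5 was called. In whole seedlings, fewer cells of a type and less RNA per cell cannot be told apart, and the part of such shifts in the gene groups above was not tested. None of 9 seed storage protein genes was measured.

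Against cop1-6, the response of the double mutant differed in few probe sets. The difference of the 2 responses passed the threshold for 55 of 16196 probe sets (0.34%), 11 above cop1-6 (0.0679%) and 44 below it (0.272%). Over all tested probe sets the log2 fold changes of the 2 genotypes correlated at r = 0.798, a description across genes of arrays that share no sample. In cop1-6, 54.1% of tested probe sets were called. Of the probe sets called higher in the double mutant, 2754 were called higher in cop1-6, which is 85.2% of the 3231 of the double mutant and 55.6% of the 4951 of cop1-6 (30.6% of tested). Lower calls shared 2483 probe sets, 78.9% of the 3147 and 65.2% of the 3809 of cop1-6 (23.5%). In opposite directions, 3 and 17 probe sets were called.

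The count of 55 rested on single arrays. Without dark replicate 1 of the double mutant 1 probe set was called, without its dark replicate 2 there were 21, without its blue light replicate 1 there were 9 and without its blue light replicate 2 there were 252. Without cop1-6 dark replicate 2 the count was 688 (127 above, 561 below), without cop1-6 dark replicate 1 it was 12, and without cop1-6 blue light replicate 2 it was 13. The dark replicate 2 of cop1-6 was closer to the double mutant's dark replicate 2 (r = 0.957) than to its own pair (0.953). A small number of calls does not show that the 2 responses are alike. The spike-in controls averaged 338 and 259.9 in the dark cop1-6 samples, near the 209 and 254 of the double mutant.

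The 44 probe sets below cop1-6 were described by their levels in each condition. On all 44 both dark arrays of the double mutant lay above both dark arrays of cop1-6, with a median log2 difference of 1.58, and on 35 both of its blue light arrays lay below those of cop1-6 (median -0.73). In cop1-6, 36 of the 44 were called higher in blue light and none lower, against 30.6% and 23.5% over all tested probe sets. In the double mutant 6 were called higher and 17 lower, against 19.9% and 19.4% over all tested probe sets. On all 11 probe sets above cop1-6 the double mutant was lower in the dark on both arrays (median log2 difference -1.44), and cop1-6 fell in light on all 11. Because a difference of responses contains both levels, these dark and light shifts are parts of the same test and not separate support. The counts of non-overlapping arrays between the 2 genotypes were not made over all tested probe sets.

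Of the 55 probe sets 26 were paired with a single gene and 3 had a symbol. WRKY53, a factor of leaf senescence and defence, gave 58.7 and 45.8 in the dark and 51.0 and 43.5 in blue light in the double mutant. The mutant cop1-6 gave 12.1 and 11.7 in the dark and 64.4 and 51.6 in blue light (difference of log2 fold changes -2.32 ± 0.45, adjusted p = 0.0431; -1.41 at the pseudocount of 19.1). CYP71B6, a cytochrome P450 of the indole phytoalexin pathway, gave 455 and 348 in the dark and 427 and 392 in blue light in the double mutant. The mutant cop1-6 gave 162 and 174 in the dark and 441 and 613 in blue light (-1.58 ± 0.29, adjusted p = 0.0372). ATPMEPCRB, a pectin methylesterase, gave 184 and 116 in the dark and 119 and 311 in blue light in the double mutant. The mutant cop1-6 gave 64.1 and 74.6 in the dark and 481 and 378 in blue light (-2.22 ± 0.44, adjusted p = 0.0461). In each of these genes cop1-6 rose and the double mutant, already higher in the dark, was not called. All 3 differences were lost without dark replicate 1 of the double mutant (adjusted p = 0.29 for WRKY53, 0.29 for CYP71B6 and 0.309 for ATPMEPCRB), without its blue light replicate 1 (0.106, 0.0924 and 0.122), without cop1-6 dark replicate 1 (0.119, 0.119 and 0.148) or without cop1-6 blue light replicate 2 (0.0729, 0.104 and 0.0729). Without cop1-6 blue light replicate 1 the adjusted p was 0.099 for WRKY53 and 0.109 for ATPMEPCRB, and without the double mutant's dark replicate 2 it was 0.0613 for WRKY53. With only the arrays compared in the fit all 3 were lost (0.0544 for WRKY53, 0.117 for CYP71B6 and 0.234 for ATPMEPCRB), and also without trend and robust moderation (0.0533, 0.0631 and 0.0665). WRKY53 was further lost with the filter at 56.5 (0.0503) and under quantile normalization (0.0637), and ATPMEPCRB without a pseudocount and under quantile normalization (0.0502 in both).

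Among genes known here by locus only, and chosen after their values were seen, AT2G38870 gave 1031 and 698 in the dark and 512 and 719.5 in blue light in the double mutant. The mutant cop1-6 gave 70.3 and 156 in the dark and 1715 and 1670.3 in blue light (-4.48 ± 0.53, adjusted p = 0.00301). AT3G18250 fell in the double mutant, at 330.3 and 313 in the dark and 31.5 and 48.7 in blue light, and in cop1-6 it gave 38.3 and 40.8 in the dark and 114 and 313 in blue light (-5.23 ± 0.84, adjusted p = 0.0213). On the other side, AT3G10080 fell in both genotypes but further in cop1-6, with 315 and 362 in the dark and 114 and 94.5 in blue light in the double mutant. The mutant cop1-6 gave 711 and 725 in the dark and 41.1 and 64.9 in blue light (2.08 ± 0.34, adjusted p = 0.0183).

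**Figure D3:**
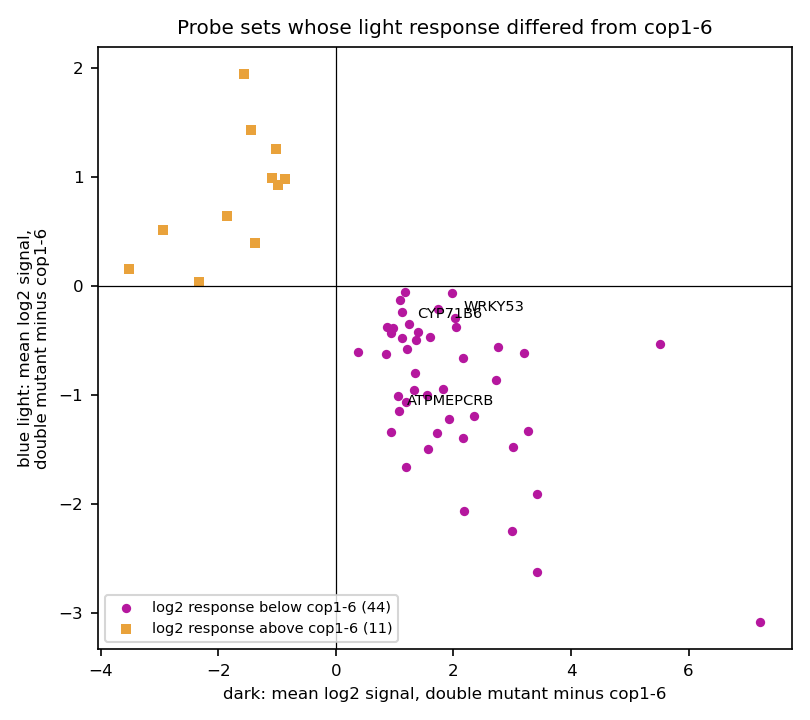
Difference between the double mutant and cop1-6 in mean log2(signal + 1), in the dark (horizontal axis) and in blue light (vertical axis), for the 55 probe sets whose light response differed between the 2 genotypes. The 44 with a log2 response below cop1-6 lie to the right of 0, where the double mutant was brighter in the dark, and the 11 above cop1-6 lie to the left. The vertical minus the horizontal value is the difference on which these probe sets were chosen, so their positions are not separate support.

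Against the WT the response differed in 4301 probe sets (26.6%), 1811 above the WT (11.2%) and 2490 below it (15.4%). Against atmyc2 it differed in 4451 (27.5%), 1362 above (8.41%) and 3089 below (19.1%), with a median difference of -0.22 over all tested probe sets. The spike-in controls had means of 914 and 986 in the dark WT samples and of 862 and 869.7 in those of atmyc2. These lay above the 209 and 254 of the double mutant, whereas the dark cop1-6 samples had 338 and 259.9. The genotypes with many differences from the double mutant were thus also those with the higher spike-in signals in the dark. The part of this control in the differences was not tested. Calls higher in the double mutant were called higher in the WT for 1750 probe sets, 54.2% of its list and 45.6% of the 3841 of the WT (23.7% of tested). Calls lower were shared for 1546, which is 49.1% of its list and 43.0% of the 3597 of the WT (22.2%). With atmyc2 the double mutant shared 2294 higher calls (71.0% of its own, 41.2% of the 5574 of atmyc2, 34.4% of tested) and 1663 lower calls (52.8% and 50.6% of the 3286 of atmyc2, 20.3%). Across probe sets the log2 fold changes correlated at 0.493 with the WT and 0.587 with atmyc2.

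**Figure D4:**
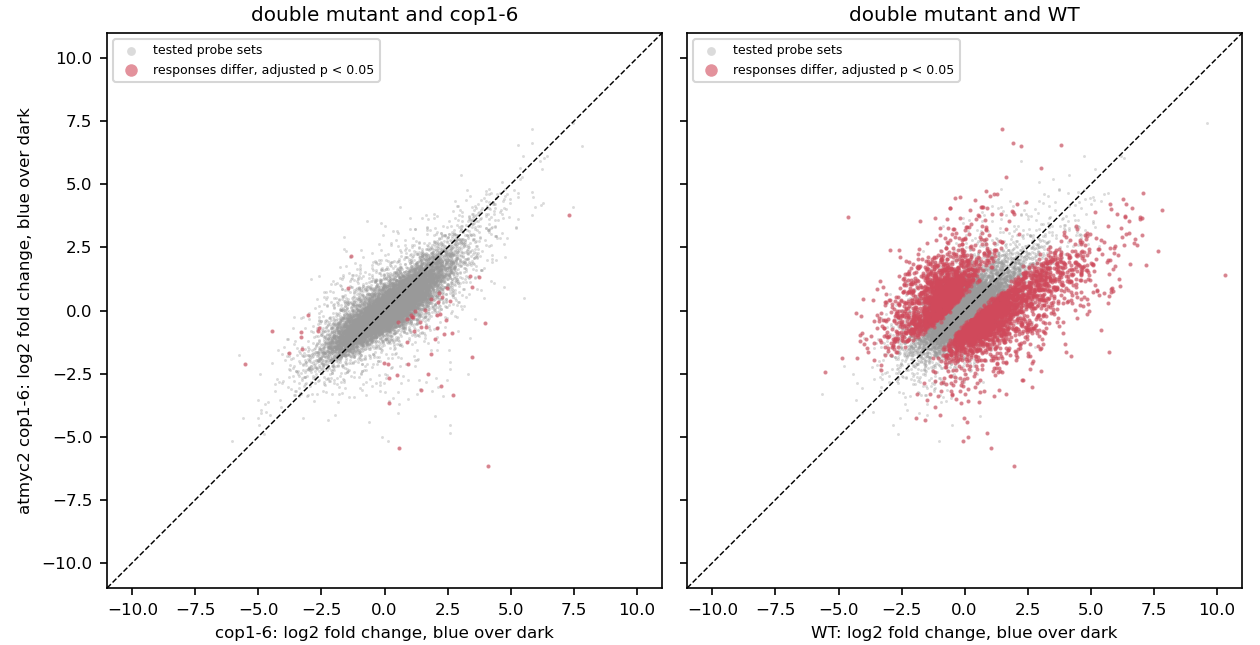
Log2 fold change (blue light over dark) of each of the 16196 tested probe sets in the double mutant (vertical axes) against cop1-6 (left) and the WT (right), with probe sets whose responses differed at an adjusted p under 0.05 in red and the line of equal change dashed. Only 55 points are red against cop1-6 and 4301 against the WT, where they lie on both sides of the line.

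The named genes with smaller gains in the double mutant were already high in the dark there and in cop1-6. ECS1, which encodes a cell wall protein, gave 426 and 549.5 in the dark and 1405 and 1162 in blue light in the double mutant, 0.4 and 1.4 in the dark and 2956 and 1827 in blue light in the WT and 3.9 and 1.3 in the dark and 1509 and 1622 in blue light in atmyc2. In cop1-6 the dark signals were 287 and 344. The log2 fold change of 1.40 ± 0.37, adjusted p = 0.00648 in the double mutant differed from that of the WT (-8.91 ± 0.52, adjusted p = 7.56e-09; -5.51 at the pseudocount of 19.1) and from that of atmyc2 (-7.46 ± 0.52, adjusted p = 1.21e-07; -4.82 at the pseudocount of 19.1); the dark signals of both lay far below 19.1. The double mutant's own call was lost without dark replicate 1 (adjusted p = 0.0588). The same order held for PSAN, whose dark signals were 716 and 725 in the double mutant against 43.7 and 37.9 in the WT and 31.0 and 42.3 in atmyc2 (difference from atmyc2 -4.07 ± 0.22, adjusted p = 3.65e-09). TROL, a thylakoid anchor of ferredoxin reductase, gave 253 and 257 in the dark against 17.1 and 10.1 in atmyc2 and 525 and 626 in light against 578 and 573 (-4.18 ± 0.34, adjusted p = 1.95e-07). GSTU20, a glutathione transferase of glucosinolate synthesis, gave 264 and 329 in the dark and 234 and 251 in blue light (adjusted p = 0.721), while atmyc2 went from 19.1 and 7.2 to 505 and 501 (difference -5.58 ± 0.80, adjusted p = 0.000124). Dark signals in cop1-6 were 683 and 709.7 for PSAN, 147 and 280.4 for TROL and 178 and 291 for GSTU20. For none of these 4 genes did the difference of responses from cop1-6 pass the threshold (adjusted p = 0.682 to 0.999).

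The plastid genes named for such differences from the WT were atpA, ndhA, rpl33, matK and ycf4. Dark signals of atpA were 2093 and 2364 in the double mutant and 66.7 and 73.0 in the WT, and its light signals were 2997 and 3669 in the double mutant and 3641 and 3839 in the WT (difference of responses -5.15 ± 0.24, adjusted p = 4.12e-10). For ndhA the dark signals were 762 and 879 in the double mutant and 17.7 and 35.6 in the WT (-5.17 ± 0.32, adjusted p = 6.49e-09). The other 3 had differences of -4.64, -4.34 and -4.84 (adjusted p = 2.35e-08, adjusted p = 1.72e-07 and adjusted p = 5.01e-08). Against atmyc2, atpF differed by -3.59 ± 0.40, adjusted p = 6.43e-06. Dark signals in cop1-6 were 2219 and 2055 for atpA and 469.5 and 459.5 for ndhA, and none of these 6 genes passed the test of the difference from cop1-6 (adjusted p = 0.149 to 0.979). In each of these plastid genes the WT dark arrays were several-fold below those of the double mutant while the light arrays of the 2 genotypes differed far less. The double mutant's own calls of atpA and ycf4 were lost without blue light replicate 2 (adjusted p = 0.125 and 0.267) or dark replicate 1 (0.0973 and 0.213), and that of ycf4 also without dark replicate 2 (0.0611) or without trend and robust moderation (0.062).

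Other genes rose in the double mutant and in cop1-6 and were not called higher in the WT. AMY1 gave 16.0 and 16.6 in the dark and 17.3 and 11.5 in blue light in the WT, 13.5 and 13.5 in the dark and 13.1 and 26.7 in blue light in atmyc2 and 8.7 and 14.9 in the dark and 579 and 414 in blue light in cop1-6; the double mutant's response was above the WT by 4.69 ± 0.53, adjusted p = 4.83e-06 and above atmyc2 by 4.05 ± 0.53, adjusted p = 2.64e-05. JRG21 gave 7.7 and 1.3 in the dark and 6.1 and 39.0 in blue light in atmyc2 and 7.1 and 8.5 in the dark and 497 and 796 in blue light in cop1-6 (double mutant above atmyc2 by 4.03 ± 1.38, adjusted p = 0.0425), and against the WT the difference missed the threshold (3.71 ± 1.38, adjusted p = 0.061). The JRG21 difference from atmyc2 was lost without the double mutant's blue light replicate 2 (adjusted p = 0.13) or dark replicate 2 (0.158) and without atmyc2 blue light replicate 1 (0.169) or dark replicate 1 (0.16), and under 4 other settings (0.0537 to 0.0845). AT4G33150, the lysine-degrading LKR/SDH enzyme, gave 85.4 and 92.8 in the dark and 302 and 451 in blue light in the double mutant. The WT gave 134 and 114 in the dark and 39.7 and 106 in blue light (2.96 ± 0.45, adjusted p = 0.000127). AT1G54410, a small dehydrin, gave 529 and 281 in the dark and 1767 and 1711 in blue light and, in the WT, 611 and 626 in the dark and 278 and 627 in blue light (2.73 ± 0.49, adjusted p = 0.000669). NAI2, a component of endoplasmic reticulum bodies, gave 252 and 296 in the dark and 360.4 and 609 in blue light. The WT gave 1487 and 1508 in the dark and 304 and 419 in blue light (2.84 ± 0.40, adjusted p = 5.78e-05). In cop1-6 the log2 fold changes were 2.97 for AT4G33150, 2.58 for AT1G54410 and 1.64 for NAI2 (adjusted p = 8.63e-07, 1.28e-05 and 0.000115). AT1G54410 was also called higher in atmyc2 (1.56, adjusted p = 0.00112). For NAI2 the double mutant's own rise was lost without blue light replicate 2 (adjusted p = 0.358), dark replicate 1 (0.176) or dark replicate 2 (0.0741), and without trend and robust moderation (0.0589).

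A further set fell less in the double mutant than in the WT or atmyc2, or was not called there. ATSBT5.2, a subtilisin-like protease, gave 86.4 and 84.2 in the dark and 37.2 and 34.7 in blue light in the double mutant. The WT gave 780.2 and 969.9 in the dark and 38.0 and 61.6 in blue light (2.92 ± 0.37, adjusted p = 1.54e-05). ICL gave 1107 and 692 in the dark and 28.2 and 11.4 in blue light in the WT, and the difference was 3.07 ± 0.87, adjusted p = 0.0169. It was lost without the double mutant's blue light replicate 1 (adjusted p = 0.0615) or dark replicate 2 (0.0735) and without WT blue light replicate 2 (0.0748) or dark replicate 1 (0.0606), and with only the arrays compared (0.062). GID1B, a gibberellin receptor, gave 138 and 138 in the dark and 120.4 and 119 in blue light in the double mutant. The mutant atmyc2 gave 565 and 592 in the dark and 56.8 and 71.2 in blue light (2.96 ± 0.41, adjusted p = 4.63e-05). CLE44, a peptide signal of vascular development, gave 30.0 and 39.9 in the dark and 46.3 and 34.0 in blue light in the double mutant. The mutant atmyc2 gave 346 and 311 in the dark and 25.1 and 32.0 in blue light (3.68 ± 0.51, adjusted p = 4.82e-05). The cell wall glycoprotein gene HRGP1 and the root-hair expansin EXPA18 differed from atmyc2 as well (3.91 ± 0.99, adjusted p = 0.00868 for HRGP1, and 4.35 ± 1.27, adjusted p = 0.0183; 2.59 at the pseudocount of 19.1 for EXPA18). In these 4 genes, GID1B to EXPA18, the double mutant was not called between dark and light, and atmyc2 was called lower. The EXPA18 difference was lost without the double mutant's blue light replicate 1 (adjusted p = 0.0751) or dark replicate 1 (0.0607) and without replicate 2 of atmyc2 in blue light (0.0823) or in the dark (0.0506). In cop1-6 the log2 fold changes were 0.42 for GID1B, -0.46 for CLE44, -0.73 for HRGP1 and -0.99 for EXPA18. None of these was called (adjusted p = 0.234 to 0.395), nor was ICL (0.0511). ATSBT5.2 was called lower in cop1-6 (-1.41, adjusted p = 0.000193). No difference between the double mutant and cop1-6 passed the threshold for any gene of this set (adjusted p = 0.32 to 0.847).

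Some genes changed in opposite directions in the double mutant and the WT, and most of those named did so in cop1-6 too. Of the probe sets called in both, 246 were higher in the double mutant and lower in the WT, and 299 were the reverse. These were 7.6% of the double mutant's higher calls and 9.5% of its lower calls. Over all tested probe sets, 22.2% were called lower and 23.7% higher in the WT, so opposite calls were fewer than these shares. Of the 246 and 299 probe sets, 21 and 25 were nameable. NET1D, an actin-binding membrane protein, gave 12.8 and 11.9 in the dark and 32.8 and 58.5 in blue light in the double mutant. The WT gave 48.3 and 61.6 in the dark and 14.8 and 15.4 in blue light (log2 fold changes 1.75 and -1.79; 1.01 in the double mutant at the pseudocount of 19.1). GT2, a trihelix transcription factor, gave 26.3 and 33.8 in the dark and 57.3 and 109 in blue light in the double mutant. The WT gave 92.6 and 90.3 in the dark and 16.1 and 45.0 in blue light (1.38 and -1.72). LD (LUMINIDEPENDENS), a nuclear protein of the flowering pathway, gave 30.2 and 27.3 in the dark and 45.7 and 88.0 in blue light in the double mutant. The WT gave 32.2 and 58.4 in the dark and 13.1 and 29.2 in blue light (1.12 and -1.11). BGLU19, NET1C and PGM completed the 6 named in this direction, at log2 fold changes of 2.04, 1.73 and 1.33 in the double mutant; BGLU19 and NET1C stayed below 19.1 on all 4 of its arrays. At the pseudocount of 19.1 the 3 values were 0.35, 0.37 and 0.77, and BGLU19 and NET1C were no longer called (adjusted p = 0.242 and 0.0917); the difference of BGLU19 from the WT was then 0.72 (0.106). In cop1-6 the log2 fold changes were 2.19 for NET1D, 1.58 for GT2, 1.88 for LD, 2.07 for NET1C and 1.26 for PGM, all 5 called, and 0.76 for BGLU19, not called (adjusted p = 0.336). No difference between the double mutant and cop1-6 passed the threshold for these 6 genes (adjusted p = 0.517 to 0.968). Of the 6, only the double mutant's call of NET1D held when each of its arrays was left out. GT2 and PGM lost it without blue light replicate 2 (adjusted p = 0.172 and 0.187) or dark replicate 1 (0.103 and 0.081), PGM also without dark replicate 2 (0.116). LD lost it without these (0.321 and 0.0986) or dark replicate 2 (0.156). BGLU19 lost it without blue light replicate 1 (0.104) or dark replicate 1 (0.13), and NET1C without either blue light array (0.157 and 0.0909) or dark replicate 2 (0.58). The differences from the WT of NET1C (adjusted p = 0.0586 without the double mutant's dark replicate 2) and of LD (0.0543 without WT blue light replicate 1, 0.0532 without WT dark replicate 2) were lost as well. Under other settings the light response calls were lost for LD without trend and robust moderation (0.0539), for LD, PGM, NET1C and BGLU19 under quantile normalization (0.0761, 0.0984, 0.125 and 0.0503), and for NET1C without a filter (0.0534).

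In the reverse direction, scpl35, a serine carboxypeptidase-like gene, gave 454 and 499 in the dark and 192 and 208 in blue light in the double mutant. The WT gave 175 and 137 in the dark and 586 and 386 in blue light (log2 fold changes -1.25 and 1.61). RR16, a response regulator of cytokinin signalling, gave 64.9 and 63.6 in the dark and 31.7 and 16.0 in blue light in the double mutant. The WT gave 8.0 and 7.6 in the dark and 46.5 and 32.6 in blue light (-1.47 and 2.18). CIL gave 37.8 and 54.9 in the dark and 3.0 and 17.7 in blue light in the double mutant. The WT gave 8.7 and 10.9 in the dark and 25.3 and 33.4 in blue light (-2.43 and 1.49; -1.19 in the double mutant at the pseudocount of 19.1). For these genes the conditions did not overlap in either genotype, and dark signals were higher in the double mutant. Of all tested probe sets, 70.0% did not overlap between conditions in the double mutant. AUR2, an Aurora kinase of cell division, AAH, allantoate amidohydrolase of purine breakdown, and P1R1 had log2 fold changes of -0.96, -1.45 and -1.64 in the double mutant and 1.44, 1.26 and 2.02 in the WT. HTB1, a histone H2B gene, also went in opposite directions (-0.72 and 0.70). For AUR2 the double mutant's value at the pseudocount of 19.1 was -0.59. All 7 genes were called lower in cop1-6 too, by -1.82 for scpl35, -1.35 for RR16, -1.48 for CIL, -0.96 for AUR2, -2.07 for AAH, -1.31 for P1R1 and -1.08 for HTB1. None of the 7 passed the test of the difference from cop1-6 (adjusted p = 0.499 to 0.998). The calls of scpl35 and CIL in the double mutant held without each of its arrays; RR16 lost its call without blue light replicate 2 (adjusted p = 0.183), dark replicate 1 (0.0798) or dark replicate 2 (0.0808). AAH lost it without blue light replicate 1 (0.136), AUR2 without blue light replicate 2 (0.0523) or dark replicate 2 (0.0766), and P1R1 without dark replicate 2 (0.0525).

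**Figure D5:**
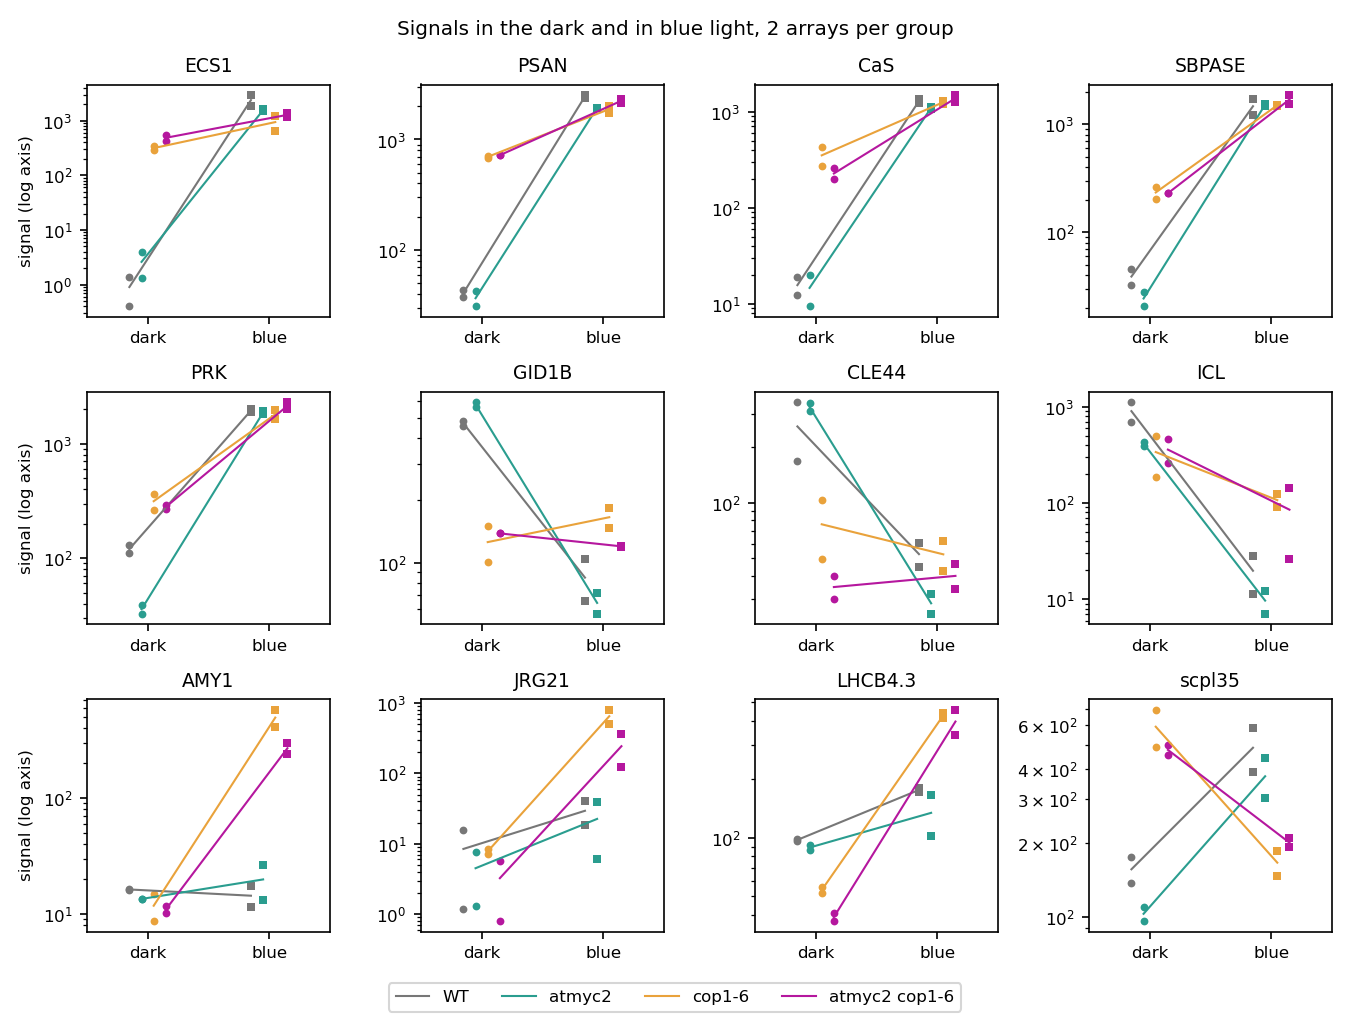
Signals of 12 genes described in the text, on log axes that differ between panels, in the dark and in blue light for 4 genotypes; points are the 2 arrays of a group, and lines join group means. In ECS1, PSAN, CaS, SBPASE and PRK the double mutant and cop1-6 start higher in the dark; in AMY1, JRG21 and LHCB4.3 they end higher in light; in scpl35 they fall where the WT and atmyc2 rise.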

How the data were processed

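The authors' deposited signal intensities from Affymetrix ATH1 arrays of biotin-labelled cRNA made from 5 µg of total RNA were used; the submitters' processing notes name GCOS 1.4, and the values averaged 100.0 on each array after 2% of values were trimmed from each end. From these, log2(signal + 1) was computed. Probe sets with a group mean above 19.1 (the 40th percentile of all values) in at least 1 group were fitted with limma 3.58.1 (R 4.3.3; moderated with trend and robust settings) as 12 group means over all 24 arrays; a difference of responses is a contrast in that fit. Detection calls were not used, and the number of arrays limits the precision. Gene names came from the platform annotation, updated through RefSeq: 13513 probe sets had 1 gene, 503 several and 8794 none. The labels call replicates biological without naming separate cultures, so p-values measure only the spread between these samples. The genotypes, gene lists, tests and naming rules were chosen with earlier results of these data known. Named are the 15 highest and 15 lowest nameable genes (a symbol or product name) of the light response at a pseudocount of 19.1, whose arrays did not overlap and whose higher group exceeded 19.1 on both arrays; up to 6 in each direction of each difference, the brightest group exceeding 19.1 on both arrays; up to 6 in each direction opposite to the WT; and the 4 called members with the lowest p in each list with at least 3 tested members. Mitochondrial genes were taken by symbol, since the gene table gave them no chromosome. The test was checked on simulated data with independent noise, in which few probe sets changed and all of these rose. In the real data many probe sets changed, in both directions. The check therefore cannot show how accurate the calls are here.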

Additional observations from a re-analysis of the deposited data

Results flagged for a closer look

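The light response of the double mutant differed from that of another genotype, by the test of the difference itself, in the following named genes; values are differences of log2 fold changes. From cop1-6 it differed in WRKY53 (-2.32), ATPMEPCRB (-2.22) and CYP71B6 (-1.58). From atmyc2 it was higher in EXPA18 (4.35), AMY1 (4.05), JRG21 (4.03), HRGP1 (3.91), CLE44 (3.68) and GID1B (2.96). It was lower than in atmyc2 in ECS1 (-7.47), GSTU20 (-5.58), TROL (-4.18), PSAN (-4.07), atpF (-3.59) and scpl35 (-3.07). From the WT it was higher in AMY1 (4.69), ICL (3.07), AT4G33150 (2.96), ATSBT5.2 (2.92), NAI2 (2.84) and AT1G54410 (2.73), and lower in ECS1 (-8.91), ndhA (-5.17), atpA (-5.15), ycf4 (-4.84), rpl33 (-4.64) and matK (-4.34). Among genes called in opposite directions, it was above the WT in BGLU19 (3.89), NET1C (3.61), NET1D (3.54), GT2 (3.10), PGM (2.53) and LD (2.22), and below it in CIL (-3.91), P1R1 (-3.67), RR16 (-3.65), scpl35 (-2.86), AAH (-2.71) and AUR2 (-2.40). For ECS1 the differences at a pseudocount of 19.1 were -4.82 from atmyc2 and -5.51 from the WT. For BGLU19, below 19.1 on all 4 arrays of the double mutant, the difference from the WT was then 0.72 and was not called (adjusted p = 0.106). Most of the genes called in opposite directions moved in cop1-6 as in the double mutant. Groups of 2 arrays were too small for a check of single arrays that stand apart.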

How the results depend on the processing

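None of the 131 called light responses and 39 differences counted here changed sign under the settings tried, but balances of calls did. The count of the double mutant's light response, 6378 probe sets, lay between 5598 and 6788 under the other settings and between 4195 and 5195 when 1 array was left out. The differences from the WT (4301) and from atmyc2 (4451) lay between 3095 and 4657 and between 4050 and 4745, and between 2941 and 4242 and between 3195 and 4239 when 1 array was left out. The 55 probe sets that differed from cop1-6 became 31 with the filter at 56.5, 23 without trend and robust moderation, 29 without a pseudocount, 20 with only the arrays compared, 131 with a pseudocount of 19.1 and 31 under quantile normalization. They ranged from 1 to 688 when 1 array was left out; without cop1-6 blue light replicate 2, 8 were above and 5 below cop1-6, against 11 and 44. The cause was not tested. Quantile normalization moved the median log2 fold change of all tested probe sets from 0.03 to -0.08, with 2867 higher and 3533 lower calls in place of 3231 and 3147, and the filter at 56.5 gave 2857 and 3043 (median -0.04). Quantile normalization also moved the median difference from atmyc2 from -0.22 to -0.09. In the counts of kept calls that follow, a gene was judged only under the settings in which it was tested. With the filter at 56.5 these were 124 of the 131 genes. Of 131 named genes called in the light response 91 kept their call under every setting and array left out, as did 30 of 39 named differences, and 17 of 36 list counts stayed within 1.5 times.

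With the replicate number as a block, the counts were 5987 for the light response, 13 for the difference from cop1-6, 4021 for that from atmyc2 and 3855 for that from the WT. No sign of pairing by replicate number was seen across the tested probe sets. Deviations of same-numbered dark and blue light arrays correlated at -0.08 in the double mutant and 0.07 in the WT. The values were 0.01 in atmyc2 and -0.004 in cop1-6. Whether same-numbered samples were grown or processed together cannot be told from these correlations. With the block the light response calls of EXPA7 (adjusted p = 0.0799), THI2.1 (0.0794), NET1C (0.0629) and WRKY20 (0.08) were lost. So were the differences from cop1-6 of WRKY53 (0.0544), CYP71B6 (0.0874) and ATPMEPCRB (0.101), and that of JRG21 from atmyc2 (0.0553). The values of genes near or below 19.1 depend on the pseudocount.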
